A study of Homo sapiens with 12 samples.

Results

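The 37 genes described here encode the cytosolic and mitochondrial heat shock proteins, their co-chaperones, the 8 subunits of the cytosolic chaperonin TRiC and the transcription factors HSF1 and HSF2. They were listed by name for their function, out of 35810 genes with a summed count. Of the 37, 35 passed the filter on low counts and were among the 12821 genes tested; the other 2, HSPA1A and HSPA1B, are described by their counts alone. Polyadenylated RNA had been sequenced from HepG2, a line established from a human liver tumour. The 4 groups of 3 libraries were ARID1B-KO cells with sorafenib, ARID1B-KO cells with DMSO, WT cells with sorafenib and WT cells with DMSO. Sorafenib, a kinase inhibitor used against liver cancer, was given at 5 µM for 48 h, and the DMSO vehicle is labelled as 0.1% by volume. ARID1B, a subunit of the SWI/SNF chromatin remodelling complex, had been targeted with CRISPR/Cas9. The 3 replicates of a group are called biological in the design text; the number of ARID1B-KO clones behind them is not stated in the labels.

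Chaperones bind unfolded or partly folded proteins and keep them from aggregating. HSP70 proteins take up client chains with the help of J-domain proteins, which stimulate their ATPase, and release them with the help of nucleotide exchange factors. Many clients pass on to HSP90, whose co-chaperones deliver kinases and steroid receptors to it and time its ATPase cycle, whereas actin and tubulin fold inside the TRiC ring. HSF1 is the main factor that raises these genes after heat or proteotoxic stress, through repeated GAA and TTC units in their promoters called heat shock elements.

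The promoter windows of the RefSeq table (GRCh38.p14, 250 bases before to 50 bases after each start) were searched for 2 adjacent units in opposite orientation, written GAANNTTC or TTCNNGAA. Each of the 2 motifs is its own reverse complement, so both strands are covered, and the 2 overlap where 3 or more units alternate. Windows were found for 34 of the 37 genes, and not for HSF1, FKBP4 and CCT6A. Of the 34, 11 (32.4%) held such a motif, against 13.7% of all 27305 windows in the table. A run of 3 alternating units was present in 4 of the 34 windows (11.8%), those of HSPA8, DNAJA1, DNAJB6 and CHORDC1, and in 0.487% of all windows. Windows of 3 of these genes are shown because they hold such runs and because the genes differ in how they respond. HSPA8 (chr11:123062087-123062386, minus strand) is the constitutive cytosolic HSP70, DNAJA1 (chr9:33025023-33025322, plus strand) a J-domain partner of it, and CHORDC1 (chr11:90223000-90223299, minus strand) an HSP90 co-chaperone. Each is read 5′ to 3′ on the strand of the gene, and capitals mark the bases of a motif.
HSPA8: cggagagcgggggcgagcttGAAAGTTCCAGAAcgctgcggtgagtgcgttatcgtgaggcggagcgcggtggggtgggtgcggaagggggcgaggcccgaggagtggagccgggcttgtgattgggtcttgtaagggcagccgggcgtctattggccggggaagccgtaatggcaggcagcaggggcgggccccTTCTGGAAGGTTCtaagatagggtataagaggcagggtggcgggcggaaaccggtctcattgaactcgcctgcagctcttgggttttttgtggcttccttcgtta
DNAJA1: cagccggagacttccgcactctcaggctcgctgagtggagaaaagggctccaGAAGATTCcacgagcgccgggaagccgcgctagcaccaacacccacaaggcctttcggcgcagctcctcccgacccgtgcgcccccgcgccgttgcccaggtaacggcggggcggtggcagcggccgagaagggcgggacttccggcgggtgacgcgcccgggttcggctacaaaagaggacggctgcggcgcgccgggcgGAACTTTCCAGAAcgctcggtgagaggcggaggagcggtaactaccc
CHORDC1: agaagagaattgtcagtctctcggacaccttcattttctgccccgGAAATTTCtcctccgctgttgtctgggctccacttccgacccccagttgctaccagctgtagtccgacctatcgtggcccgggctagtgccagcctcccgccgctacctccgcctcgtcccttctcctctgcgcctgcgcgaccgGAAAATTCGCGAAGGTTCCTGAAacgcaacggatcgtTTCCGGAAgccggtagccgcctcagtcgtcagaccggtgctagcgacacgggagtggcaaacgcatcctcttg
The CHORDC1 window held 6 overlapping or separate matches, 4 of them in a single run that begins 60 bases before the start. HSPA8 had 4 matches in 2 runs, and the run of 3 units in DNAJA1 lies just after the start. A motif in these letters is a description of sequence and not a mapped HSF1 site. Among the 32 tested genes with a window, those with the motif and those without it had close median log2 fold changes with sorafenib: -0.48 and -0.49 in ARID1B-KO cells, and -0.39 and -0.34 in WT cells. Each gene was searched at a single RefSeq start, which need not be the start in use. The HSP90AA1 window (chr14:102139700-102139999, minus strand) lies wholly upstream of its GENCODE gene, which ends at 102139699. Genes counted as without the motif may hold it at another start, so the split does not show whether the motif matters.

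The libraries held 19739582 to 29398257 estimated counts, of which 2.87% to 3.20% lay in transcripts that could not be matched to a gene. ARID1B itself had 35.6, 25.9 and 26.5 CPM (counts scaled to library size after TMM normalization) in ARID1B-KO cells with sorafenib and 26.4, 28.0 and 27.6 CPM in ARID1B-KO cells with DMSO. WT cells held 67.5, 69.1 and 62.3 CPM with sorafenib and 58.4, 61.9 and 66.7 CPM with DMSO. The targeted gene was lower in every ARID1B-KO library, at 0.438 of the WT level in DMSO (edgeR quasi-likelihood test, adjusted p = 7.4e-06), and its RNA was still present. All 8 hepatocyte markers checked were detected, and their summed level was 118200 to 158900 CPM in ARID1B-KO cells with sorafenib, 95770 to 110200 with DMSO, 95410 to 98850 in WT cells with sorafenib and 79160 to 87450 with DMSO. ALB, the most abundant of the 8 markers, had the largest differences in absolute CPM. Its TMM-normalized means were 88910 CPM in ARID1B-KO cells with sorafenib, 51040 with DMSO, 43300 in WT cells with sorafenib and 32590 with DMSO. APOA1, SERPINA1, TF and HNF4A also had higher means with sorafenib in both genotypes. APOA1 averaged 9791 CPM with sorafenib against 3961 with DMSO in ARID1B-KO cells, and 8147 against 3452 in WT cells. In proportion APOA1 thus changed more with sorafenib than ALB in both genotypes. AFP had a higher mean with sorafenib in ARID1B-KO cells alone (24120 against 18750 CPM). APOB and TTR had lower means with sorafenib in both genotypes. APOB, the core protein of very-low-density lipoprotein, averaged 9675 CPM in ARID1B-KO cells with sorafenib against 17400 with DMSO (log2 fold change -0.85, adjusted p = 0.0079) and 11450 CPM in WT cells with sorafenib against 18210 with DMSO (-0.67, adjusted p = 0.034). TTR, a thyroxine carrier made by the liver, fell by 0.90 on the log2 scale in WT cells (adjusted p = 0.00010) and stood at -0.15 in ARID1B-KO cells (adjusted p = 0.32). The part of these markers in the results that follow was not tested. Markers of fibroblasts (5 genes) summed to at most 0.522 CPM, and COL1A2 and DCN were at 0 in every group. Among 4 endothelial markers VWF and CDH5 passed the filter, with sums of 7.05 to 9.22, 3.09 to 6.37, 2.77 to 4.06 and 1.16 to 1.94 CPM in the groups taken in the same order, and KDR was at 0. Among 4 blood markers only CD68 passed the filter, with PTPRC and HBB at 0 throughout and sums of 25.8 to 52.6 CPM.

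With sorafenib most of the chaperone genes fell in both genotypes, and none was called higher. In ARID1B-KO cells 30 of the 35 tested genes fell (adjusted p under 0.05 over all 12821 genes), where 23.7% of all genes fell, and 0 rose, where 23.0% of all genes rose. In WT cells 21 of the 35 fell, where 18.0% of all genes fell, and 0 rose, where 17.5% rose. DESeq2 called 32 genes lower in ARID1B-KO cells and 23 in WT cells, where it called 21.9% and 18.0% of all genes with an adjusted p lower, and 1 gene higher in each genotype, where it called 22.9% and 17.8% higher, namely HSPB1 in ARID1B-KO cells and DNAJB1 in WT cells; at an unadjusted p under 0.05 the edgeR test had the same 1 gene above 0 in each. The median log2 fold change of the 35 genes was -0.49 in ARID1B-KO cells, against 0.01 for all genes, and -0.39 in WT cells, against -0.01 for all genes. All 21 genes that fell in WT cells also fell in ARID1B-KO cells. A further 9 were called lower in ARID1B-KO cells alone, 0 in WT cells alone, and 5 in neither: HSF2, DNAJB1, DNAJB4, HSPE1 and HSPB1. Changes were relative to all genes after TMM normalization, and in bulk RNA fewer expressing cells and less RNA per cell cannot be told apart. Most changes were moderate: 3 genes (FKBP4, FKBP5 and CHORDC1) were more than 2-fold lower in ARID1B-KO cells and 1 (CHORDC1) in WT cells.

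**Figure D1:**
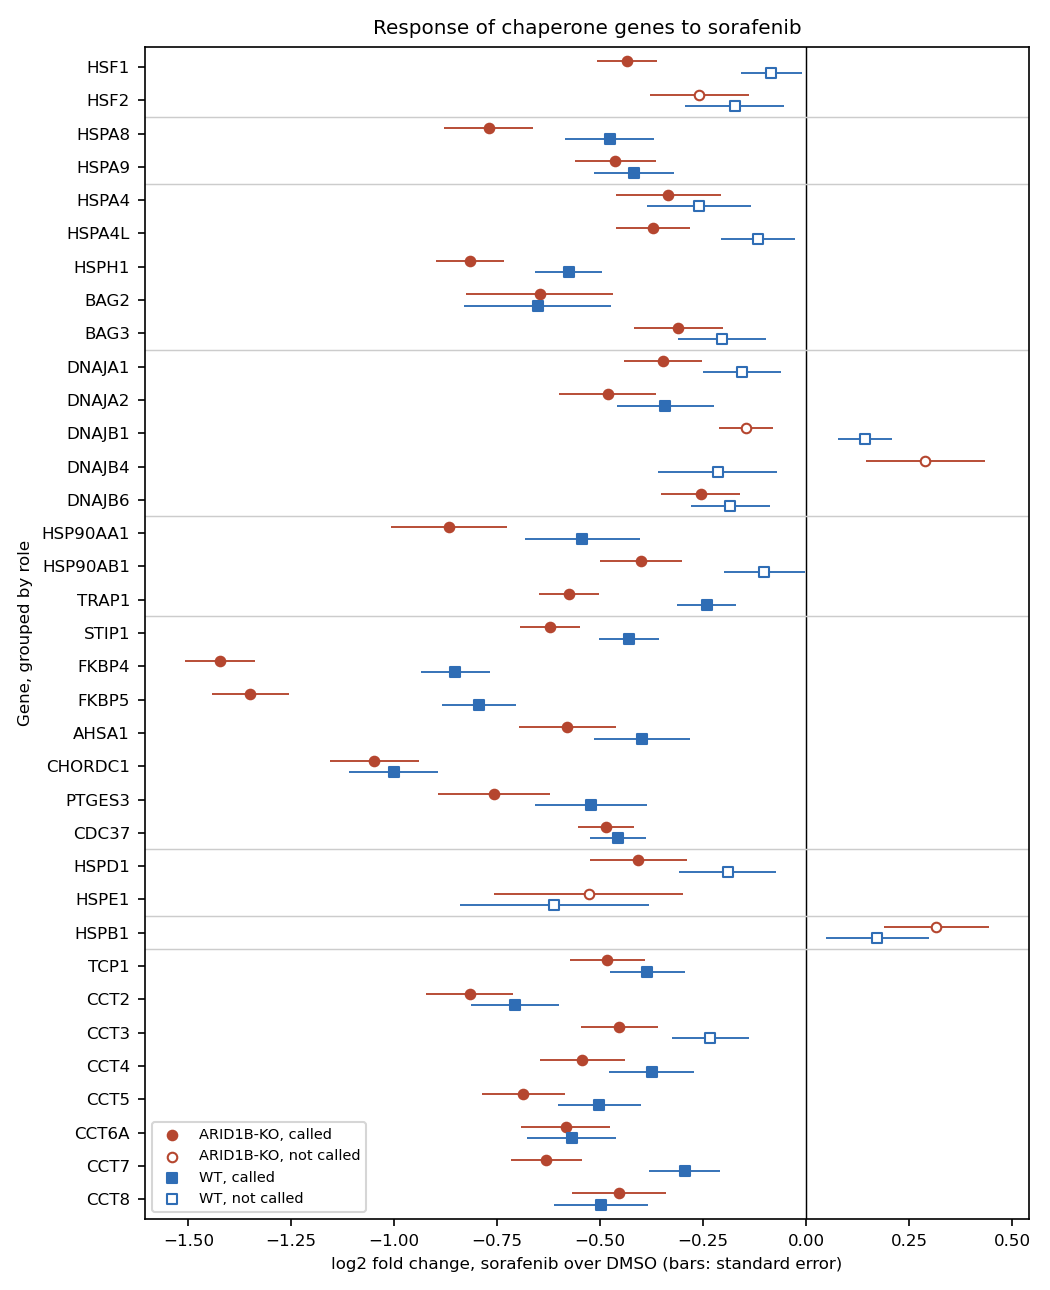
log2 fold change of the 35 tested genes, sorafenib over DMSO, in ARID1B-KO cells (red circles) and WT cells (blue squares), with standard errors; filled symbols passed adjusted p under 0.05. The 30 filled red and 21 filled blue symbols all lie left of 0, and FKBP4 at -1.42 and FKBP5 at -1.35 in ARID1B-KO cells lie farthest to the left.

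Of the heat shock factors, HSF1 fell in ARID1B-KO cells. It had 44.6, 43.5 and 43.2 CPM in ARID1B-KO cells with sorafenib, against 62.8, 55.0 and 59.7 CPM with DMSO, and 45.4, 49.6 and 48.1 CPM in WT cells with sorafenib, against 48.2, 51.6 and 51.9 CPM with DMSO. The ARID1B-KO groups do not overlap, at a log2 fold change of -0.43 ± 0.07 (SE, adjusted p = 0.00037), whereas the WT groups overlap, at -0.08 ± 0.07 (adjusted p = 0.41). HSF1 transcripts were split between isoforms very differently from library to library, with coding isoforms holding 44.9% to 94.7% of its TPM, and with a length offset the ARID1B-KO value became -1.04 (adjusted p = 0.051). HSF2, a related factor, had 17.2, 20.4 and 23.4 CPM in ARID1B-KO cells with sorafenib and 24.8, 21.7 and 26.4 CPM with DMSO, and 17.9, 17.4 and 18.9 CPM in WT cells with sorafenib and 21.8, 21.3 and 18.1 CPM with DMSO. Its groups overlap in both genotypes, at -0.26 ± 0.12 in ARID1B-KO cells (adjusted p = 0.095) and -0.17 ± 0.12 in WT cells (adjusted p = 0.29).

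Among the HSP70 chaperones, HSPA8 fell in both genotypes. It had 1010, 1135 and 918 CPM in ARID1B-KO cells with sorafenib, against 1783, 1669 and 1774 CPM with DMSO, and 966, 1029 and 961 CPM in WT cells with sorafenib, against 1257, 1459 and 1397 CPM with DMSO. Every sorafenib library lay below every DMSO library, and the log2 fold changes were -0.77 ± 0.11 in ARID1B-KO cells (adjusted p = 8.8e-05) and -0.48 ± 0.11 in WT cells (adjusted p = 0.0041). HSPA9, the mitochondrial HSP70, fell by 0.46 ± 0.10 on the log2 scale in ARID1B-KO cells (adjusted p = 0.0018) and by 0.42 ± 0.10 in WT cells (adjusted p = 0.0049). Its call in ARID1B-KO cells was kept under every alternative processing of the data, and that in WT cells was not.

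The stress-inducible HSP70 genes HSPA1A and HSPA1B, near-identical neighbours on chromosome 6, could not be measured from these tables. HSPA1A held 0, 3.65 and 8.25 estimated counts in ARID1B-KO cells with sorafenib, 0 in each ARID1B-KO library with DMSO, 28.6, 0 and 0 in WT cells with sorafenib and 8.30, 0 and 0 with DMSO. HSPA1B held 8.40, 8.47 and 0 counts in ARID1B-KO cells with sorafenib and 0 in the other 9 libraries. The tables also list 4 transcripts that GENCODE release 44 does not annotate and whose length, 2483 bases, is the same as that of an HSPA1A transcript in the files. These 4 together held 2480, 1288 and 1067 counts in ARID1B-KO cells with sorafenib, 1496, 2404 and 1672 with DMSO, 3483, 3000 and 2974 in WT cells with sorafenib and 2357, 1561 and 2738 with DMSO, nearly all in 1 transcript. They are given no gene name here, and no fold change is given for HSPA1A or HSPA1B, whose low counts do not show that these genes were silent.

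All 5 of the HSP110 proteins and other nucleotide exchange factors fell in ARID1B-KO cells, and 2 of the 5, HSPH1 and BAG2, fell in WT cells. Of all genes 23.7% fell in ARID1B-KO cells and 18.0% in WT cells. HSPH1, an HSP110 protein, had 119, 138 and 140 CPM in ARID1B-KO cells with sorafenib, against 246, 225 and 228 CPM with DMSO, and 121, 113 and 110 CPM in WT cells with sorafenib, against 171, 172 and 169 CPM with DMSO. The groups are well apart, at -0.82 ± 0.08 in ARID1B-KO cells (adjusted p = 6.0e-06) and -0.58 ± 0.08 in WT cells (adjusted p = 0.00016). BAG2, which promotes nucleotide release and inhibits the ubiquitin ligase CHIP, had 32.6, 40.0 and 40.2 CPM in ARID1B-KO cells with sorafenib, against 64.7, 52.7 and 59.2 CPM with DMSO, and 37.0, 24.1 and 40.4 CPM in WT cells with sorafenib, against 64.4, 47.1 and 48.2 CPM with DMSO. The BAG2 values scatter more, and the changes of -0.65 ± 0.18 in both genotypes lost their call without 1 library (adjusted p = 0.051 without ARID1B-KO sorafenib replicate 1, and 0.059 without WT DMSO replicate 1). HSPA4 (-0.33 ± 0.13) and BAG3 (-0.31 ± 0.11), the exchange factor of chaperone-assisted autophagy, passed narrowly in ARID1B-KO cells, with adjusted p = 0.045 and 0.031. Their calls were lost in 8 and 4 of the 12 fits that leave out 1 library, with adjusted p up to 0.20 and 0.15, and the HSPA4 value was -0.22 without ARID1B-KO DMSO replicate 3. HSPA4L, also an HSP110 protein, fell by 0.37 ± 0.09 in ARID1B-KO cells (adjusted p = 0.0043) and stood at -0.12 ± 0.09 in WT cells (adjusted p = 0.34).

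The J-domain proteins had estimates on both sides of 0 in each genotype. In ARID1B-KO cells DNAJA2 (-0.48 ± 0.12), DNAJA1 (-0.35 ± 0.10) and DNAJB6 (-0.26 ± 0.10) fell, and in WT cells DNAJA2 alone was called (-0.34 ± 0.12, adjusted p = 0.038). The DNAJA2 call in WT cells was absent in 6 of the 12 fits without 1 library (adjusted p up to 0.15), and that of DNAJB6 in ARID1B-KO cells in 10 of the 12 (up to 0.17). Without ARID1B-KO sorafenib replicate 3 the DNAJB6 value was -0.39 (adjusted p = 0.0016). DNAJB1, the classical heat-inducible HSP40, had log2 fold changes of -0.15 ± 0.07 in ARID1B-KO cells and 0.14 ± 0.07 in WT cells, with adjusted p = 0.085 and 0.11. DNAJB4, another class B J-domain protein, stood at 0.29 ± 0.14 in ARID1B-KO cells and -0.21 ± 0.14 in WT cells, with adjusted p = 0.12 and 0.28.

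All 3 HSP90 chaperones fell in ARID1B-KO cells, where 23.7% of all genes fell. HSP90AA1, the stress-inducible cytosolic HSP90, had 1910, 2307 and 1929 CPM in ARID1B-KO cells with sorafenib, against 4497, 3323 and 3384 CPM with DMSO, and 1966, 1799 and 1763 CPM in WT cells with sorafenib, against 2820, 2745 and 2492 CPM with DMSO. ARID1B-KO DMSO replicate 1 stands above the other 2 of its group, and no sorafenib library reaches a DMSO library of its genotype, at -0.87 ± 0.14 in ARID1B-KO cells (adjusted p = 0.00027) and -0.54 ± 0.14 in WT cells (adjusted p = 0.0088). HSP90AB1, the constitutive cytosolic form, fell by 0.40 ± 0.10 in ARID1B-KO cells (adjusted p = 0.0049) and stood at -0.10 ± 0.10 in WT cells (adjusted p = 0.46). TRAP1, the mitochondrial HSP90, had 99.5, 100 and 96.4 CPM in ARID1B-KO cells with sorafenib, against 147, 148 and 146 CPM with DMSO, and 148, 160 and 152 CPM in WT cells with sorafenib, against 171, 180 and 193 CPM with DMSO. TRAP1 replicates lie close together, and the changes were -0.58 ± 0.07 in ARID1B-KO cells (adjusted p = 3.5e-05) and -0.24 ± 0.07 in WT cells (adjusted p = 0.019). The WT call was lost without WT DMSO replicate 3 or WT sorafenib replicates 1 or 3 (adjusted p 0.062 to 0.083).

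The HSP90 co-chaperones held the strongest responses, and all 7 fell in both genotypes. Among all genes 23.7% fell in ARID1B-KO cells and 18.0% in WT cells. FKBP4 (FKBP52; chr12:2794970-2805423, plus strand, GRCh38), a peptidyl-prolyl isomerase that binds HSP90 in steroid receptor complexes, had 45.4, 52.1 and 55.1 CPM in ARID1B-KO cells with sorafenib, against 135, 129 and 146 CPM with DMSO. WT cells held 60.8, 59.9 and 62.3 CPM with sorafenib, against 112, 105 and 114 CPM with DMSO. Sorafenib libraries were far below DMSO libraries in each genotype, and the lowest of all 12 were the ARID1B-KO sorafenib libraries. FKBP4 fell to 0.373 of the DMSO level in ARID1B-KO cells (log2 fold change -1.42 ± 0.09, adjusted p = 9.4e-08) and to 0.554 in WT cells (-0.85 ± 0.08, adjusted p = 7.6e-06). FKBP5 (FKBP51; chr6:35573585-35728583, minus strand), the related isomerase that counteracts FKBP4 at the glucocorticoid receptor, had 19.4, 18.8 and 20.0 CPM in ARID1B-KO cells with sorafenib, against 44.9, 49.8 and 53.5 CPM with DMSO. In the WT libraries FKBP5 had 35.9, 34.8 and 37.3 CPM with sorafenib, against 55.3, 64.4 and 67.5 CPM with DMSO. The 4 groups do not overlap, and FKBP5 fell by 1.35 ± 0.09 on the log2 scale in ARID1B-KO cells (adjusted p = 2.7e-07) and by 0.79 ± 0.09 in WT cells (adjusted p = 2.6e-05).

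CHORDC1 (chr11:90200429-90223077, minus strand), whose promoter is printed above, fell by a similar amount in both genotypes. It had 48.4, 53.0 and 60.8 CPM in ARID1B-KO cells with sorafenib, against 114, 101 and 120 CPM with DMSO, and 54.8, 48.9 and 48.1 CPM in WT cells with sorafenib, against 112, 99.6 and 92.2 CPM with DMSO. The log2 fold changes were -1.05 ± 0.11 in ARID1B-KO cells (adjusted p = 6.65e-06) and -1.002 ± 0.11 in WT cells (adjusted p = 1.55e-05). PTGES3, the p23 protein that stabilises closed HSP90, had 223, 256 and 299 CPM in ARID1B-KO cells with sorafenib, against 423, 402 and 490 CPM with DMSO, and 257, 204 and 240 CPM in WT cells with sorafenib, against 386, 311 and 311 CPM with DMSO. STIP1 (HOP), which bridges HSP70 and HSP90, had 176, 185 and 181 CPM in ARID1B-KO cells with sorafenib, against 276, 272 and 285 CPM with DMSO, and 202, 202 and 187 CPM in WT cells with sorafenib, against 264, 267 and 265 CPM with DMSO. Sorafenib and DMSO libraries of these 2 genes do not overlap in either genotype, with changes of -0.76 ± 0.14 in ARID1B-KO cells and -0.52 ± 0.14 in WT cells for PTGES3 and of -0.62 ± 0.07 in ARID1B-KO cells and -0.43 ± 0.07 in WT cells for STIP1. CDC37, which brings kinases to HSP90, had 97.4, 97.5 and 104 CPM in ARID1B-KO cells with sorafenib, against 140, 135 and 144 CPM with DMSO, and 122, 117 and 120 CPM in WT cells with sorafenib, against 168, 160 and 163 CPM with DMSO. Its fall was of like size, at -0.49 ± 0.07 in ARID1B-KO cells and -0.46 ± 0.07 in WT cells. AHSA1, an activator of the HSP90 ATPase, fell by 0.58 ± 0.12 in ARID1B-KO cells and by 0.40 ± 0.12 in WT cells, and its WT call was lost without WT DMSO replicate 1 or WT sorafenib replicates 2 or 3 (adjusted p 0.063 to 0.083).

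**Figure D2:**
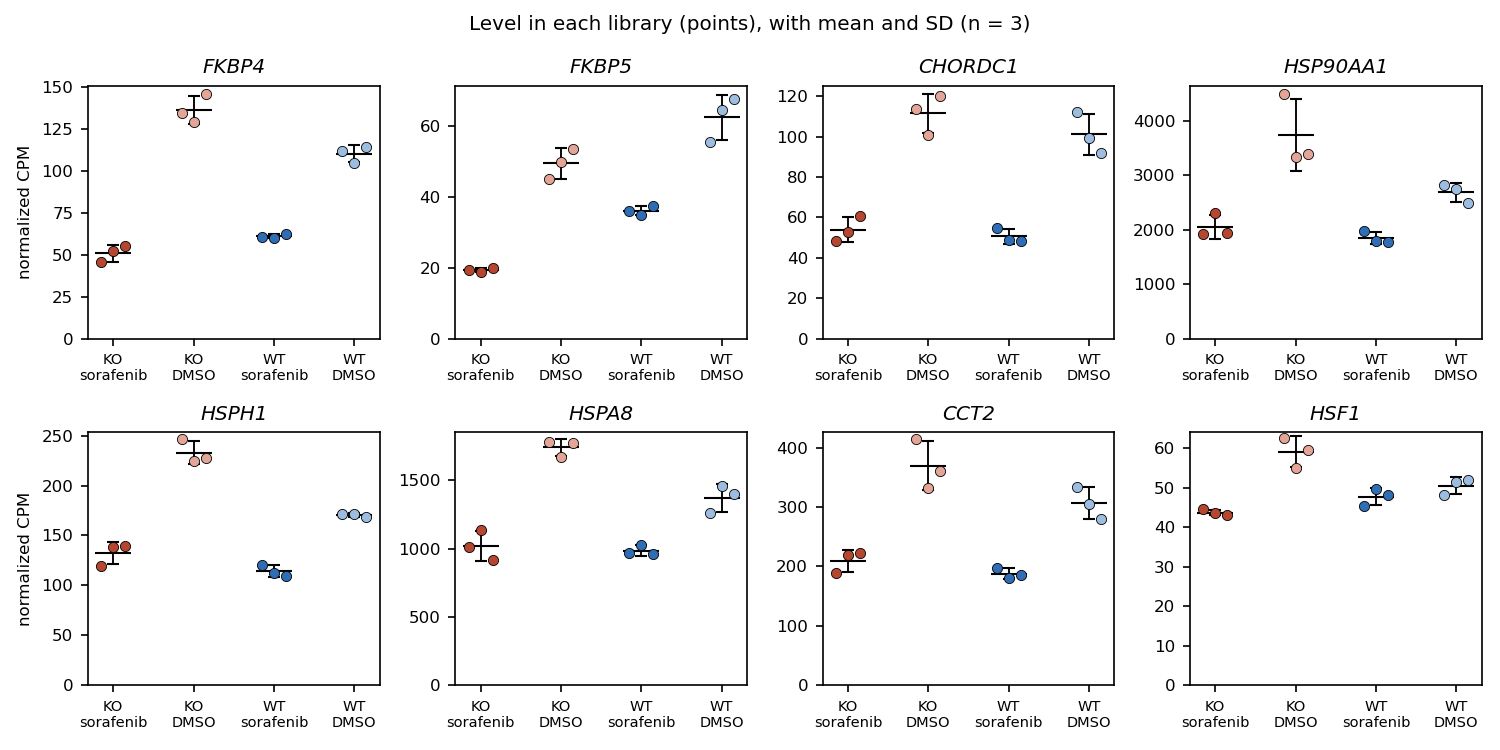
Level of 8 genes in each library, in normalized CPM on axes from 0; points are libraries, and lines with bars are the mean and SD of 3. Sorafenib libraries lie below DMSO libraries of the same genotype in every panel except HSF1 in WT cells, where they overlap.

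The mitochondrial chaperonin subunits HSPD1 (HSP60) and HSPE1 (HSP10) are divergent neighbours on chromosome 2, with RefSeq starts 105 bases apart. HSPD1 fell in ARID1B-KO cells by 0.41 ± 0.12 (adjusted p = 0.012, and 0.051 without ARID1B-KO sorafenib replicate 1) and stood at -0.19 ± 0.12 in WT cells (adjusted p = 0.23). HSPE1 had 257, 251 and 356 CPM in ARID1B-KO cells with sorafenib, against 329, 419 and 498 CPM with DMSO, and 288, 222 and 262 CPM in WT cells with sorafenib, against 547, 342 and 290 CPM with DMSO. WT DMSO replicate 1 lies far above the other 2 of its group. The WT log2 fold change of HSPE1 was -0.61 ± 0.23 (adjusted p = 0.055) and became -0.30 ± 0.19 (adjusted p = 0.28) without that library; the ARID1B-KO value was -0.53 ± 0.23 (adjusted p = 0.077). HSPB1 (HSP27), the 1 small heat shock protein of the list that was tested, had log2 fold changes of 0.32 ± 0.13 in ARID1B-KO cells (adjusted p = 0.058) and 0.17 ± 0.13 in WT cells (adjusted p = 0.31).

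TRiC fell nearly as a whole, with 8 of its 8 subunits lower in ARID1B-KO cells and 7 of 8 in WT cells. The shares of all genes that fell were 23.7% and 18.0%, in the same order. The subunit changes spanned -0.82 to -0.45 in ARID1B-KO cells and -0.71 to -0.23 in WT cells. CCT2 had 188, 218 and 222 CPM in ARID1B-KO cells with sorafenib, against 414, 333 and 361 CPM with DMSO, and 198, 180 and 186 CPM in WT cells with sorafenib, against 334, 305 and 280 CPM with DMSO. It lay at the low end of both spans, at -0.82 ± 0.11 in ARID1B-KO cells (adjusted p = 4.8e-05) and -0.71 ± 0.11 in WT cells (adjusted p = 0.00023). CCT5 had 217, 252 and 270 CPM in ARID1B-KO cells with sorafenib, against 389, 370 and 432 CPM with DMSO, and 304, 295 and 285 CPM in WT cells with sorafenib, against 446, 408 and 396 CPM with DMSO. CCT6A had 231, 274 and 294 CPM in ARID1B-KO cells with sorafenib, against 423, 362 and 413 CPM with DMSO, and 258, 233 and 237 CPM in WT cells with sorafenib, against 391, 353 and 336 CPM with DMSO. Neither gene overlaps between treatments, with changes of -0.69 ± 0.10 in ARID1B-KO cells and -0.50 ± 0.10 in WT cells for CCT5 and of -0.58 ± 0.11 in ARID1B-KO cells and -0.57 ± 0.11 in WT cells for CCT6A. The other called subunits were TCP1, CCT4, CCT7 and CCT8 in both genotypes and CCT3 in ARID1B-KO cells, with CCT3 at -0.23 ± 0.09 in WT cells (adjusted p = 0.071). The WT calls of CCT4 (without WT DMSO replicate 1 or WT sorafenib replicate 2, adjusted p up to 0.062) and CCT7 (without WT DMSO replicate 1 or WT sorafenib replicates 2 or 3, up to 0.068) were lost.

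The difference between the 2 responses was tested as an interaction, the log2 fold change with sorafenib in ARID1B-KO cells minus that in WT cells. Only FKBP4 passed: 1 of 35 genes was lower, where 0.460% of all genes were lower, and 0 were higher, where 0.374% were higher (1 above 0 at an unadjusted p under 0.05, and 0 by DESeq2). The FKBP4 difference was -0.57 ± 0.12 (adjusted p = 0.044). That call held in 4 of 21 alternatives, over which the value ran from -0.63 to -0.42 and the adjusted p from 0.00025 to 0.41, and it was absent in 11 of the 12 fits that leave out 1 library, all but that without ARID1B-KO sorafenib replicate 3. Of those 4, the alternative with HSPA1A and HSPA1B summed could not change the call, since the sum did not pass the filter. FKBP5 had a difference of -0.56 ± 0.13 (adjusted p = 0.060). The estimate was below 0 for 30 of the 35 genes, against 51.5% of all genes. An unadjusted p under 0.05, in either direction, was found for 7 of the 35 and for 15.3% of all genes. Of these 7 genes, 6 were below 0. DESeq2 called 6 of the 35 lower, where it called 2.62% of all genes with an adjusted p lower and 2.03% higher. The same libraries enter the estimates of all genes, and the 9 genes called in ARID1B-KO cells alone are not thereby shown to respond differently.

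**Figure D3:**
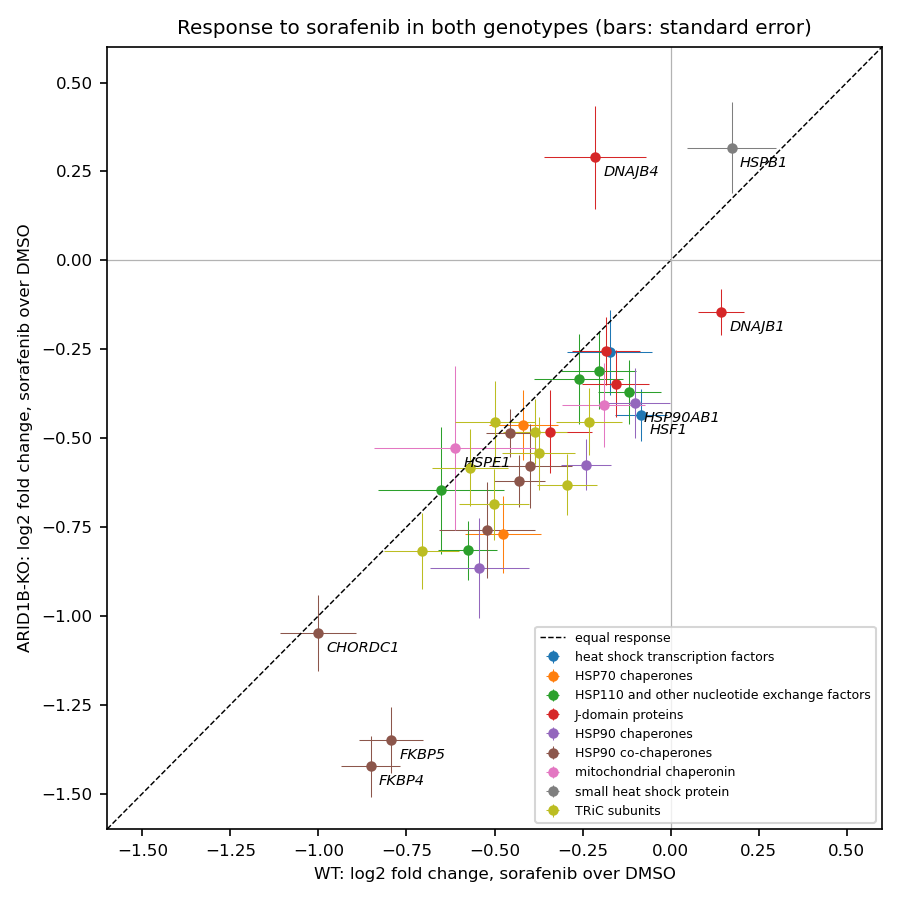
log2 fold change with sorafenib in WT cells (x axis) and ARID1B-KO cells (y axis) for the 35 tested genes, coloured by role, with standard errors and a dashed line of equal response. The points of 30 genes lie below the line; CHORDC1 (-1.002 and -1.05) lies near it, and FKBP4 (-0.85 and -1.42) and FKBP5 (-0.79 and -1.35) lie below it.

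ARID1B-KO cells with DMSO already differed from WT cells with DMSO at 12 of the 35 genes. In DMSO 9 were higher in ARID1B-KO cells, where 14.3% of all genes were higher, and 3 were lower, where 13.5% were lower, and the median log2 difference of the 35 was 0.14, against 0.01 for all genes. The higher genes were HSF1, HSPA8, HSPA4L, HSPH1, DNAJA1, DNAJA2, DNAJB1, HSP90AA1 and FKBP4, and the lower ones TRAP1, FKBP5 and CDC37. No TRiC subunit was called in DMSO by edgeR, where CCT2 and CCT3 had an unadjusted p under 0.05 and were called higher by DESeq2, as were 14.5% of all genes with an adjusted p. HSPA4L had 71.1, 58.2 and 61.0 CPM in ARID1B-KO cells with DMSO, against 41.4, 41.2 and 38.7 CPM in WT cells with DMSO, and 45.0, 50.6 and 51.7 CPM in ARID1B-KO cells with sorafenib, against 39.4, 36.2 and 36.2 CPM in WT cells with sorafenib. ARID1B-KO libraries of HSPA4L were above WT libraries under both treatments, at 0.65 ± 0.09 (adjusted p = 0.00018) in DMSO and 0.40 ± 0.09 (adjusted p = 0.0057) in sorafenib. The HSPA4L call in DMSO was kept under every alternative processing of the data, and that in sorafenib was not. HSPH1 (0.45 ± 0.08, adjusted p = 0.0014), DNAJA1 (0.46 ± 0.10, adjusted p = 0.0031) and HSP90AA1 (0.48 ± 0.14, adjusted p = 0.023) were also higher in DMSO, and the HSP90AA1 value was 0.31 without ARID1B-KO DMSO replicate 1 (adjusted p = 0.10). Several of these calls were lost when 1 library was left out. Without WT DMSO replicate 2 only 3 genes were higher and 1 was lower, and without WT DMSO replicate 3 the counts were 5 and 1. Without ARID1B-KO DMSO replicate 1 they were 5 and 3. Calls over all genes also became fewer, from 1829 higher and 1734 lower of 12821 with every library. They numbered 1276 and 1253 of 13050 without WT DMSO replicate 2 and 1343 and 1231 of 13006 without WT DMSO replicate 3. Without ARID1B-KO DMSO replicate 1 they numbered 1385 and 1434 of 13040. Calls lost in at least 1 such fit were those of HSF1, HSPA8, DNAJA2, DNAJB1, HSP90AA1, FKBP4, FKBP5 and CDC37, with adjusted p of 0.050 to 0.14. Those of HSPH1 and TRAP1 held in these fits but were lost under another alternative processing of the data. Of the 12 calls in DMSO, only those of DNAJA1 and HSPA4L were kept throughout.

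Under sorafenib 8 of the 35 genes differed between the genotypes. HSPA4L and DNAJB4 were higher in ARID1B-KO cells, 2 of 35 where 13.2% of all genes were higher. HSP90AB1, TRAP1, FKBP4, FKBP5, CDC37 and CCT7 were lower, 6 of 35 where 13.8% of all genes were lower, and the median over the 35 was -0.01, against 0.00 for all genes. The count of higher genes thus lies below the share of all genes, and the count of lower genes is near it. The 2 higher calls became 4 without ARID1B-KO sorafenib replicate 1, and 1 without ARID1B-KO sorafenib replicate 2 or 3 or WT sorafenib replicate 2. Higher calls over all genes went from 1695 of 12821 to 1558 of 13016 without ARID1B-KO sorafenib replicate 1. They were 1198 of 13008 and 1512 of 13014 without ARID1B-KO sorafenib replicates 2 and 3, and 1235 of 13048 without WT sorafenib replicate 2. FKBP5 was 0.539 of the WT level in sorafenib (-0.89 ± 0.09, adjusted p = 2.1e-05) and 0.792 of it in DMSO (-0.34 ± 0.09, adjusted p = 0.014). TRAP1 was 0.643 of the WT level in sorafenib (-0.64 ± 0.07, adjusted p = 4.0e-05) and 0.810 of it in DMSO (-0.30 ± 0.07, adjusted p = 0.0073). HSP90AB1 had 1898, 1805 and 1861 CPM in ARID1B-KO cells with sorafenib, against 2587, 2634 and 2656 CPM in WT cells with sorafenib, a clear gap of -0.50 ± 0.10 (adjusted p = 0.0024), and stood at -0.20 ± 0.10 in DMSO (adjusted p = 0.15). FKBP4 was called in both comparisons with opposite sign, at -0.26 ± 0.08 in sorafenib (adjusted p = 0.035) and 0.31 ± 0.08 in DMSO (adjusted p = 0.015). The FKBP4 call in sorafenib was lost in 5 of the 12 fits without 1 library (adjusted p up to 0.11) and that in DMSO in 2 (up to 0.070), and with a length offset its DMSO value was 0.08 (adjusted p = 0.67). DNAJB4 stood 0.53 ± 0.14 higher in ARID1B-KO cells with sorafenib (adjusted p = 0.016) and at 0.02 ± 0.14 in DMSO; the call was lost without WT sorafenib replicate 2 or ARID1B-KO sorafenib replicates 2 or 3 (adjusted p up to 0.070). The CCT7 call (-0.31 ± 0.09, adjusted p = 0.018) was lost without WT sorafenib replicates 1 or 3 or ARID1B-KO sorafenib replicate 1, and the CDC37 call (-0.26 ± 0.07, adjusted p = 0.013) without ARID1B-KO sorafenib replicate 2, with adjusted p up to 0.065.

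**Figure D4:**
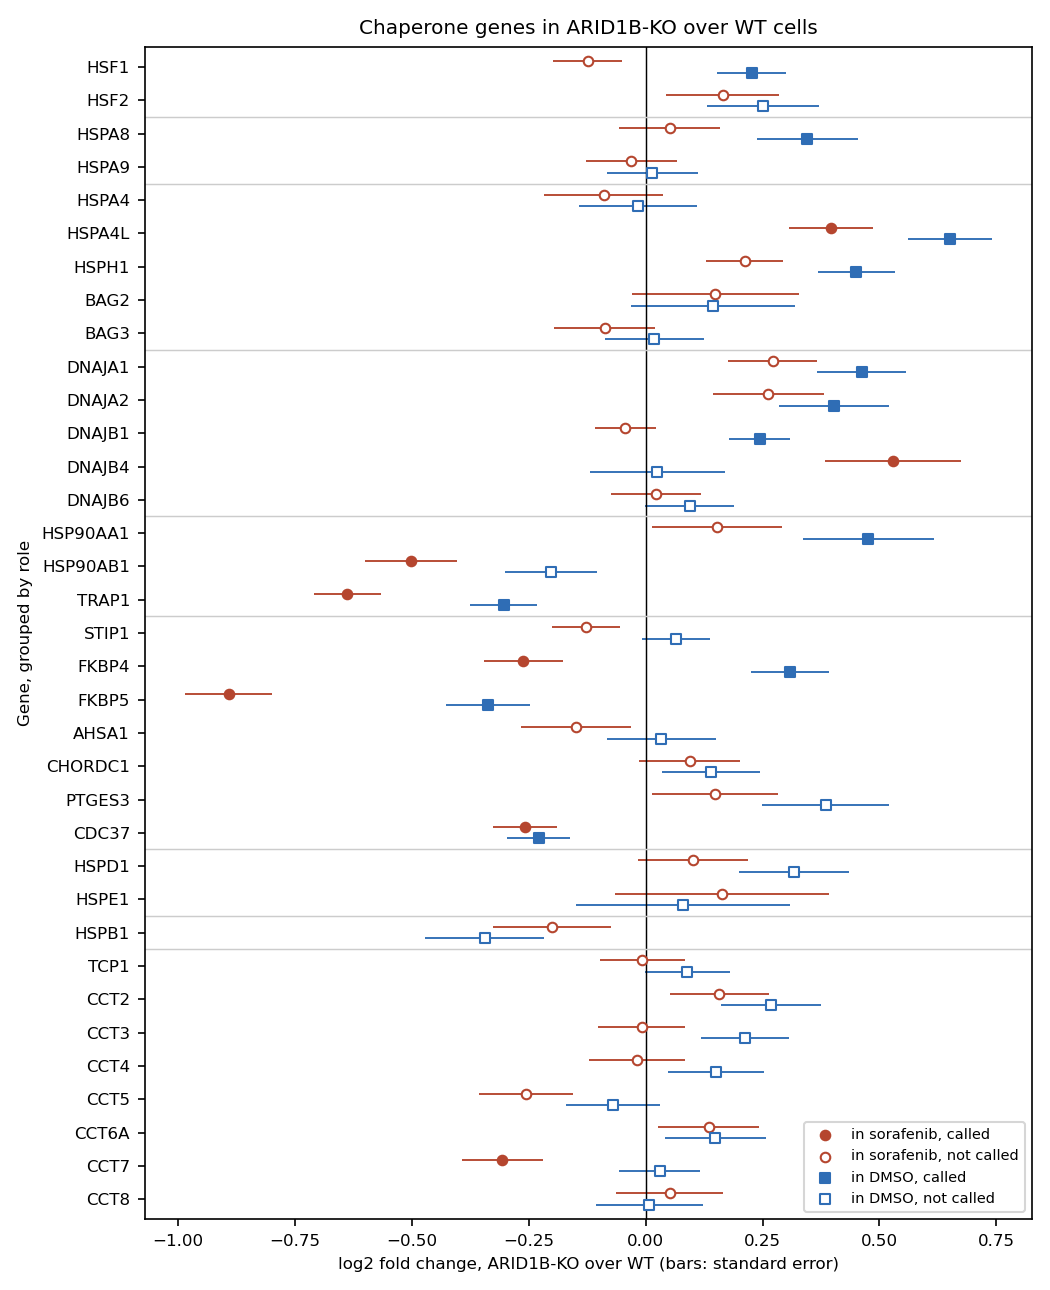
log2 fold change of the 35 tested genes, ARID1B-KO over WT, with sorafenib (red circles) and with DMSO (blue squares), with standard errors; filled symbols passed adjusted p under 0.05. The 9 genes called higher in DMSO lie right of 0, up to HSPA4L at 0.65, and FKBP5 at -0.89 in sorafenib lies farthest to the left.

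Levels of different genes were set side by side in TPM, which divides counts by transcript length, summed over the transcripts of a gene. The 37 genes together made up 0.902% ± 0.097 of all TPM in ARID1B-KO cells with sorafenib, 1.47% ± 0.05 with DMSO, 0.914% ± 0.029 in WT cells with sorafenib and 1.24% ± 0.02 with DMSO (SD, n = 3 each). HSPD1, HSPA8, HSPE1, HSP90AB1 and HSP90AA1 were the 5 highest in every group and held 55.0% to 59.0% of the sum in each library. HSPD1 averaged 1564 ± 190 TPM in ARID1B-KO cells with sorafenib, 2261 ± 30 with DMSO, 1481 ± 97 in WT cells with sorafenib and 1723 ± 90 with DMSO. Behind it HSPA8 (1571 ± 295 TPM), HSPE1 (1323 ± 406 TPM), HSP90AB1 (1213 ± 111 TPM) and HSP90AA1 (1047 ± 13 TPM) follow in WT cells with DMSO, where neighbours from HSPD1 to HSP90AB1 lie within their SD and HSP90AB1 exceeds HSP90AA1 by more than that. HSP90AB1 averaged 798 ± 35 TPM in ARID1B-KO cells with sorafenib, where it and HSP90AA1 (824 ± 117 TPM) lie within their SD, and 1138 ± 52 TPM in WT cells with sorafenib. Of the TRiC subunits CCT7 was the highest, at 450 ± 30 TPM in ARID1B-KO cells with sorafenib and 770 ± 33 TPM in WT cells with DMSO, and the other 7 averaged 287 to 370 TPM in WT cells with DMSO. FKBP4 averaged 23.0 ± 3.3 TPM in ARID1B-KO cells with sorafenib and 61.8 ± 4.0 TPM with DMSO, and FKBP5 6.45 ± 0.83 TPM in ARID1B-KO cells with sorafenib and 17.2 ± 2.9 TPM with DMSO. BAG3 was the lowest of the tested genes in every group, at 4.72 to 6.37 TPM on average. TPM sums include noncoding isoforms: coding isoforms held 8.06% to 16.7% of the TPM of HSPA4, 7.43% to 38.7% of that of CCT3 and 32.3% to 41.0% of that of CCT7, so their sums are not levels of translated mRNA. The same limit holds, among others, for FKBP4 (46.0% to 63.2%), STIP1 (44.7% to 60.1%), AHSA1 (43.25% to 87.7%) and CCT6A (43.85% to 63.45%).

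**Figure D5:**
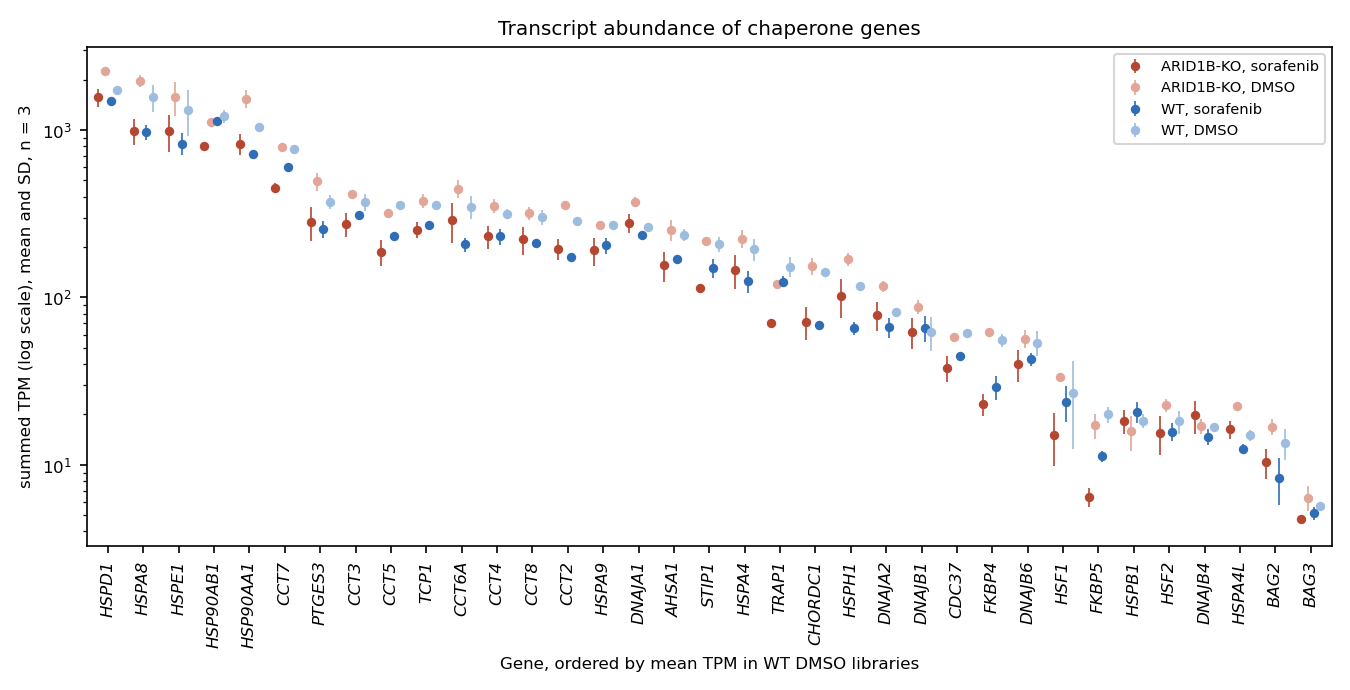
Summed TPM of the 35 tested genes on a log scale, ordered by the mean in WT cells with DMSO; points are means and bars SD of 3 libraries, for ARID1B-KO cells with sorafenib, ARID1B-KO cells with DMSO, WT cells with sorafenib and WT cells with DMSO. The values run from HSPD1 at 1723 TPM to BAG3 at 5.66 TPM in WT cells with DMSO, and HSF1 has the widest bar in that group for its level (27.0 ± 14.5 TPM).

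Other genes of the same pathways were called in both directions with sorafenib; pairs of log2 fold changes in these lists are in ARID1B-KO cells and then in WT cells. Over 6 further lists holding 60 genes, of which 53 were tested, 22 fell and 5 rose in ARID1B-KO cells (median -0.29), and 18 fell and 5 rose in WT cells (median -0.19). Of all genes 23.7% fell and 23.0% rose in ARID1B-KO cells, and 18.0% fell and 17.5% rose in WT cells. In lists of this size a few calls in either direction are near those shares. Among 13 tested HSP70, HSP110 and J-domain genes outside the list, 5 fell and 1 rose in each genotype, with DNAJC2, a ribosome-associated J-domain protein, at -0.81 and -0.68. Of 17 other HSP70 and HSP90 co-chaperones, 7 fell and 4 rose in ARID1B-KO cells and 4 fell and 3 rose in WT cells; NUDC, an HSP90-associated protein of the cytoskeleton, fell by 1.22 (adjusted p = 2.9e-07) and by 0.91 (adjusted p = 5.1e-06), whereas ST13, the HSP70-interacting protein HIP, rose by 0.43 in WT cells. Of 8 tested prefoldin subunits and TRiC cofactors, 4 fell in ARID1B-KO cells and 3 in WT cells, with TXNDC9, a TRiC-binding cofactor, at -0.89 and -0.65. Of 7 mitochondrial cofactors and proteases, 4 fell in each genotype, with CLPB, a mitochondrial disaggregase, at -0.79 and -0.78. Of 7 other heat-inducible genes that depend on HSF1, 2 fell in ARID1B-KO cells and 2 fell and 1 rose in WT cells: JMJD6 was at -0.54 and -0.40, IER5 at -0.59 in ARID1B-KO cells, SERPINH1 at -0.47 and ZFAND2A at 0.54 in WT cells. The 1 tested gene of 4 other small heat shock genes, CRYAB, was called in none of these comparisons, with log2 fold changes of -0.09 and -0.12 (adjusted p = 0.92 in each).

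Between the genotypes, 9 of the 53 tested pathway genes were higher and 1 was lower in ARID1B-KO cells with DMSO, and 8 were higher and 3 lower with sorafenib. Of all genes 14.3% were higher and 13.5% lower in DMSO, and 13.2% were higher and 13.8% lower in sorafenib, so that the higher counts are near the share of all genes. HSPA12A, an atypical HSP70, was higher in ARID1B-KO cells with DMSO, at a log2 fold change of 1.04 (adjusted p = 0.00018), as was ZFAND2A, at 0.99 (adjusted p = 0.00015). FKBP5 is also a target of the glucocorticoid receptor, and 4 of 6 other targets of that receptor were tested. With sorafenib 2 rose and 2 fell in ARID1B-KO cells and 1 rose and 2 fell in WT cells: PER1 rose by 0.82 in ARID1B-KO cells and 0.73 in WT cells, ERRFI1 fell by 1.11 and 1.05, and SGK1 fell by 0.92 and 0.51, in the same order. KLF9, the second to rise in ARID1B-KO cells, did so by 1.03 at a mean of 1.80 CPM with sorafenib. In DMSO 3 of the 4 were lower in ARID1B-KO cells, namely KLF9 (-4.06), SGK1 (-0.55) and ERRFI1 (-0.26, adjusted p = 0.041), and PER1 (0.55) was higher.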

How the data were processed

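Each library has a deposited Salmon table that lists, per the file headers, an estimated count, a TPM value, a length and an effective length for each of 177456 transcripts. The deposited estimated counts are fractional and not normalized, and the TPM values were scaled within a library by the authors. Salmon (version not given) and DESeq2 1.46.0 on GRCh38 are listed in the submitters' processing notes, and Ensembl release 109 in the design text. Strand and bias settings are not given in the sources. Per the labels' protocols, libraries came from 750 ng of total RNA with 9 PCR cycles and paired-end reads of 75 bp.

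Transcripts were matched by identifier without version to GENCODE release 44 (93.3% matched), summed to 35810 genes and rounded. Salmon divides reads between near-identical sequences, so genes with close copies, such as HSPA1A and HSPA1B, HSPA8, HSPD1 and HSPE1, are uncertain. The test was edgeR 4.0.16 quasi-likelihood (R 4.3.3, robust, TMM, filterByExpr over the 4 groups) with 12 libraries in a single fit, Benjamini-Hochberg adjustment over 12821 genes and calls at adjusted p under 0.05. Log2 fold changes are ± SE. The alternatives were other scalings, no filter, a length offset, DESeq2 1.42.0, limma 3.58.1 on log2(TPM + 1), the 2 groups compared alone, HSPA1A and HSPA1B summed, a replicate block and each library left out. The edgeR step was tested on simulated data. A correlation of each gene with the rest, planned as a description, is not given, since the libraries fall into separate groups.

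The genes and lists were chosen with earlier results of these data known. Values in every library are given for genes called in both sorafenib comparisons (the 12 with the largest mean change), in both genotype comparisons or in the interaction, and for HSF1, HSF2, HSPA1A and HSPA1B. HSPE1 and HSP90AB1 were added after their values were seen. Genes of other pathway lists were named among the 3 of smallest p in a list and comparison. P-values rest on 3 libraries a group.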

Additional observations from a re-analysis of the deposited data

Results flagged for a closer look

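The response of FKBP4 to sorafenib differed between the genotypes in the test of the difference itself, at -0.57 on the log2 scale (ARID1B-KO minus WT). FKBP4 fell to 0.373 of the DMSO level in ARID1B-KO cells and to 0.554 in WT cells. The adjusted p was 0.044, and 17 of 21 alternatives put it at or above 0.05. The alternative with HSPA1A and HSPA1B summed kept the call but could not change it, since the sum did not pass the filter.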

How the results depend on the processing

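Over at most 22 alternatives per result, 0 of the 72 called values changed sign, and 43 kept their call in every alternative: 24 of 30 for sorafenib in ARID1B-KO cells, 14 of 21 in WT cells, 3 of 8 between genotypes in sorafenib, 2 of 12 in DMSO and 0 of 1 in the interaction. Of the 103 values not called, 30 changed sign, none larger than 0.24 before or after. With sorafenib, genes called higher numbered 1 in ARID1B-KO cells with RLE scaling, upper-quartile scaling or DESeq2, and 1 in WT cells with upper-quartile scaling or DESeq2. Over all genes, the higher calls in those settings were 3043, 3254 and 3144 in ARID1B-KO cells, and 2491 and 2384 in WT cells. In the main fit they were 2947 and 2239. Between genotypes in DMSO, the length offset gave 5 higher and 1 lower, limma 5 and 0, library totals 1 lower and DESeq2 5 lower. Over all genes, 1131 were higher and 1059 lower with the length offset, and 1219 and 774 with limma. Library totals gave 1502 lower and DESeq2 1949, against 1829 higher and 1734 lower in the main fit. In sorafenib DESeq2 gave 4 higher and limma 1, where 1926 and 896 of all genes were higher, against 1695 in the main fit. The interaction count was 0 with upper-quartile scaling, library totals, no filter, the length offset, the replicate block and limma, and 6 with DESeq2. Over all genes, in that order, 45, 15, 53, 1, 10, 6 and 242 were higher in the interaction. The lower ones numbered 55, 15, 39, 1, 9, 2 and 312, and the main fit had 48 higher and 59 lower.

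Leaving out 1 library gave 26 to 31 lower and 0 to 1 higher with sorafenib in ARID1B-KO cells, 16 to 22 and 0 in WT cells, 3 to 11 higher and 1 to 4 lower between genotypes in DMSO, 1 to 4 and 4 to 7 in sorafenib, and 0 to 1 lower and 0 higher in the interaction. Over the 13006 to 13053 genes tested in those fits, 2526 to 3096 were lower and 2561 to 2980 higher with sorafenib in ARID1B-KO cells. In WT cells 1777 to 2442 were lower and 1802 to 2320 higher. Between genotypes 1276 to 1939 were higher and 1231 to 1912 lower in DMSO, and 1198 to 1820 and 1281 to 1822 in sorafenib. The interaction had 1 to 64 lower and 4 to 74 higher. Same-numbered libraries deviated together with correlations of -0.16 to 0.18, so the numbers are not taken as pairs; the replicate block gave 30 and 21 lower with sorafenib, 8 higher and 3 lower in DMSO and 2 higher and 6 lower in sorafenib. Over all genes it gave 2937 and 2220 lower with sorafenib, 1702 higher and 1679 lower in DMSO and 1603 and 1668 in sorafenib. Low counts limit HSPA1A and HSPA1B. Scalings moved the median of all genes by under 0.1, and the cause of changed calls was not tested.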
